A study of Mus musculus with 2 samples.

Results

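Small nuclear RNAs (snRNAs), small nucleolar RNAs (snoRNAs) and small Cajal body RNAs (scaRNAs) were examined in total RNA from the mouse hippocampus. Genes were selected on their annotated biotype (snRNA, snoRNA or scaRNA in the annotation that the deposited tables carry) and on a mean expected count of at least 10 over the 2 libraries. An expected count is the number of reads estimated to come from a gene, without normalisation. Of the 2941 genes of these biotypes among 55536 genes in all, 85 passed: 27 of 1383 snRNA genes, 49 of 1507 snoRNA genes and 9 of 51 scaRNA genes. Because the count chose these genes, their levels are given as a description, with no test.

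The libraries came from the hippocampus (the labels give the tissue as a layer of it) of male B6CASTF1/J mice, hybrids of the C57BL/6J and CAST/EiJ strains, at postnatal day 14. They are replicate 2 and replicate 1 of a single group, which the labels call biological replicates. Each label lists 3 males under its own animal numbers, without stating that their RNA was pooled, and 300 ng of starting RNA to which ERCC spike-ins (synthetic control RNAs) were added. The libraries are stranded, with ribosomal RNA reduced. There was no comparison between conditions, so what follows describes levels, copies of the same RNA and the difference between the libraries. All genes together had 31755578 counts in replicate 2 and 29144892 in replicate 1. Markers of excitatory neurons (Camk2a, at 1307 TPM in replicate 2 and 1260 TPM in replicate 1, where TPM is a level per unit of effective length), inhibitory neurons (Gad1, 124 and 104 TPM) and astrocytes (Slc1a2, 1027 and 1039 TPM) were present, as were those of microglia and endothelium. Mbp, a myelin protein of oligodendrocytes, had 439 TPM in replicate 2 and 813 TPM in replicate 1, and its part in the differences between the libraries was not tested. In bulk tissue, fewer cells of a type and less RNA per cell cannot be told apart.

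As background, snRNAs are the RNA parts of the spliceosome: U1 pairs with the splice site at the start of an intron, U2 pairs with the branch point, and further snRNAs join them before the intron is removed. Box C/D snoRNAs guide the methylation of ribosomal RNA and box H/ACA snoRNAs guide the change of uridine to pseudouridine, while a few, U3 among them, are needed to cut the ribosomal precursor. Small Cajal body RNAs guide the same modifications on snRNAs. In mammals most guide RNAs are cut out of introns of host genes, whereas the spliceosomal snRNAs are transcribed from their own promoters, often from many near-identical copies.

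The length of an RNA set whether it could be counted at all. In the gene tables, the effective length (the number of places where a read can start) was the annotated length minus 99 in all 32088 genes with 1 transcript of at least 100 bases, which is what a read of 100 bases that must lie inside the transcript gives. All 655 snRNA, snoRNA and scaRNA genes under 100 bases had an effective length of 0 and a count of 0 in both libraries. The same held for the counts of all 2398 genes of any biotype under 100 bases. Of the 1137 genes of 100 to 125 bases, 21 had a count and none reached the minimum of 10. The 85 genes came from the remaining lengths: 36 of 867 genes at 126 to 149 bases, 28 of 242 at 150 to 199 bases, and 21 of 40 at 200 to 414 bases. The shortest of them was 126 bases and the longest, Scarna2, 414 bases.

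**Figure D1:**
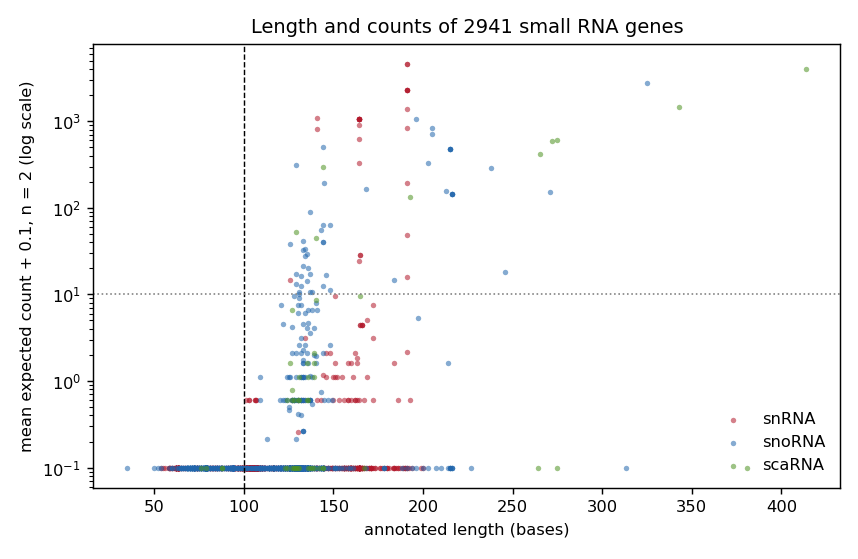
Mean expected count plus 0.1 (log scale, n = 2) against annotated length for the 2941 snRNA, snoRNA and scaRNA genes, each point a gene, with a dashed line at 100 bases and a dotted line at the minimum of 10. Every gene left of 100 bases lies on the floor of the plot, and the genes above the dotted line are 126 to 414 bases long.

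Several well-known RNAs were therefore outside what the tables can show. All 17 entries of Snord116, the box C/D cluster deleted in Prader-Willi syndrome in humans, are 94 bases long and were listed at 0, as were Snord64 (67 bases) from the same locus and Rnu7 (62 bases), the snRNA of histone mRNA processing. Above 100 bases, Rnu5g (116 bases) and Snord13 (104 bases) were listed at 0 too. Their windows for a 100-base read are few, so a 0 here says nothing about whether the RNA was present. For entries of at least 100 bases, a count of 0 allows up to 3 counts, for counting error only. That is 0.0945 CPM (counts scaled to the library) in replicate 2 and 0.103 in replicate 1. No such bound applies under 100 bases, where the effective length of 0 fixed the count at 0. A Snord116 entry (chr7:59894620-59894713, minus strand) is shown to give the scale of what was not counted. Sequences here and further on are the GENCODE M21 transcripts on mm10, with T for U. Capitals mark box C (TGATGA, within the first 30 bases) and box D (CTGA, within the last 30 bases).
Snord116l1: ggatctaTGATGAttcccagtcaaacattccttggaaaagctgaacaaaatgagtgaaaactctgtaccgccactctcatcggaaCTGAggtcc

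Rnu12 and Rnu11, RNAs of the minor spliceosome, and some RNAs of nucleolar particles fell below the minimum. Further RNAs of the minor spliceosome were not searched for among the unnamed entries. Rnu12 had 8 counts in replicate 2 and 11 in replicate 1, and Rnu11 had 3 counts in each. Snord118, the U8 RNA of ribosomal precursor processing, had 4 counts in each. The genes nearest to the minimum on the inside were Gm25788 with 8 and 12 counts in replicates 2 and 1, and Gm22154 and Gm26165 with 8 and 13 each. Nearest on the outside, beside Rnu12, were Gm22767 (8 and 11) and Snora78 (7 and 12).

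Together the 85 genes held 0.162% of gene counts in replicate 2 (exact Clopper-Pearson 95% interval 0.161% to 0.164%) and 0.168% in replicate 1 (0.167% to 0.170%). The snRNAs held 0.102% in replicate 2 and 0.108% in replicate 1, the snoRNAs 0.0357% and 0.0348%, and the scaRNAs 0.0247% and 0.0251%. Per unit of length the share was larger: the 85 genes held 2.70% of TPM in replicate 2 and 2.76% in replicate 1. TPM divides by the effective length, which was 27 to 315 positions in these genes and had a median of 2265 over the 18322 genes that reached a mean count of 10. The median TPM of the snRNA genes was 743 in replicate 2 and 815 in replicate 1. It was 62.4 and 45.0 in the snoRNA genes and 158 and 167 in the scaRNA genes. In both libraries the snRNA genes were thus the highest per length, but each copy of an RNA is counted there as a gene of its own.

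**Figure D2:**
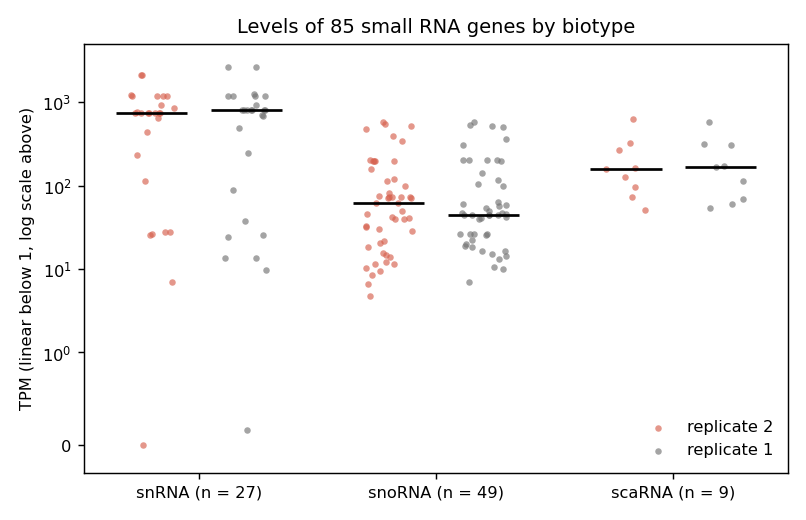
TPM of the 85 genes by biotype in replicate 2 (left of each pair, red) and replicate 1 (right, grey), with the scale linear below 1 and logarithmic above. Points are genes and bars are medians. The snRNA medians, 743 and 815 TPM, lie above those of the other biotypes, and 1 snRNA gene sits near 0 in replicate 1 and another at 0 in replicate 2.

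U2, the snRNA of the branch point, accounted for more counts than any other RNA of the set. Rnu2-10 (chr11:101658238-101658428, plus strand) had 2344 counts in replicate 2 and 2213 in replicate 1, and 1186 and 1192 TPM. Gm24950, Gm23849 and Gm23971, which lie within the same stretch of chromosome 11, have the same sequence and the same values. Gm23444 (chr11:83271498-83271688, plus strand) and Gm23472 (chr1:72236946-72237136, plus strand) differ from Rnu2-10 by G109C alone, with positions counted from 1 at the start of the RNA, and had 4193 counts in replicate 2 and 4928 in replicate 1 each. With 16 annotated entries at least 85% identical to Rnu2-10, of which 11 are among the 85 genes, the family held 41.2% of the counts of the whole set. The summed level of those 11 was 10752 TPM in replicate 2 and 10887 TPM in replicate 1, or 10819 ± 95.5 TPM (SD, n = 2).

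The copies are told apart by a few bases, and a read that covers none of those bases cannot be placed on a single copy. Only mm10 sequence was compared, and whether such a base is also a CAST/EiJ allele of another copy was not tested. Capitals in Rnu2-10 mark GTAGTA, which pairs with the branch point, and the Sm site, the stretch bound by the ring of Sm proteins (searched as ATTTNTG). In the other copies, which lie on chromosomes 11 and 1 (Gm24497 at chr1:72244213-72244403, plus strand, and Gm25939 at chr1:72255008-72255198, plus strand), capitals mark each base that differs from Rnu2-10. These are G109C in Gm23444, G109C and C186A in Gm24497, and T69C, C78T and G109C in Gm25939.
Rnu2-10: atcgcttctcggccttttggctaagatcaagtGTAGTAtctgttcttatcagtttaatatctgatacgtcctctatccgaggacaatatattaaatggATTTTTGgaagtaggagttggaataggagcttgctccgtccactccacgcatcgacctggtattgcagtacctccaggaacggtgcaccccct
Gm23444: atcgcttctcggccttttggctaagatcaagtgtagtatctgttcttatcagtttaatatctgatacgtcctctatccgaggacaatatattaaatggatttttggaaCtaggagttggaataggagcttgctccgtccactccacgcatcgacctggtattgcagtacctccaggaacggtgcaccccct
Gm24497: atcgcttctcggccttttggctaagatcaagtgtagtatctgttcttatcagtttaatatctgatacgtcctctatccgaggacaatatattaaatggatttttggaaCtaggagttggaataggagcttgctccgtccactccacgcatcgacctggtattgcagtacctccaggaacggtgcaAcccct
Gm25939: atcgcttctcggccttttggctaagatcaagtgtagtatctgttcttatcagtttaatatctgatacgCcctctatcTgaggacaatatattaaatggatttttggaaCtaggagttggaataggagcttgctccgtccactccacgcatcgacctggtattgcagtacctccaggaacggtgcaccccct

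Gm24497 was the gene that differed most between the libraries, and its sequence shows how little separates it from its neighbours. It had 1683 counts in replicate 2 and 0.29 in replicate 1, with a deposited posterior SD (the uncertainty of assigning reads to a gene) of 1223 and 1010 counts. It differs from Gm23444 and Gm23472 only by A186C (the base of Gm24497 first), near its end. As a result, 6 of its 92 windows of 100 bases occur in no annotated transcript of another gene. In the library where it was near 0, those copies were higher. The 3 copies together had 10069 counts in replicate 2 and 9857 in replicate 1. The log2 ratio of this sum, replicate 2 over replicate 1, was -0.11 (95% counting interval -0.15 to -0.07). It was 0.00033 when libraries were scaled to the ERCC total instead. Gm25939, with its 3 differences, had 84.8% of its windows to itself and a posterior SD of at most 0.256% of its count. It had 1523 counts in replicate 2 and 1277 in replicate 1. Gm24497, Gm23472 and Gm25939 lie in an intron of the long noncoding RNA gene D230017M19Rik, on the same strand, which had a mean of 0.64 TPM.

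**Figure D3:**
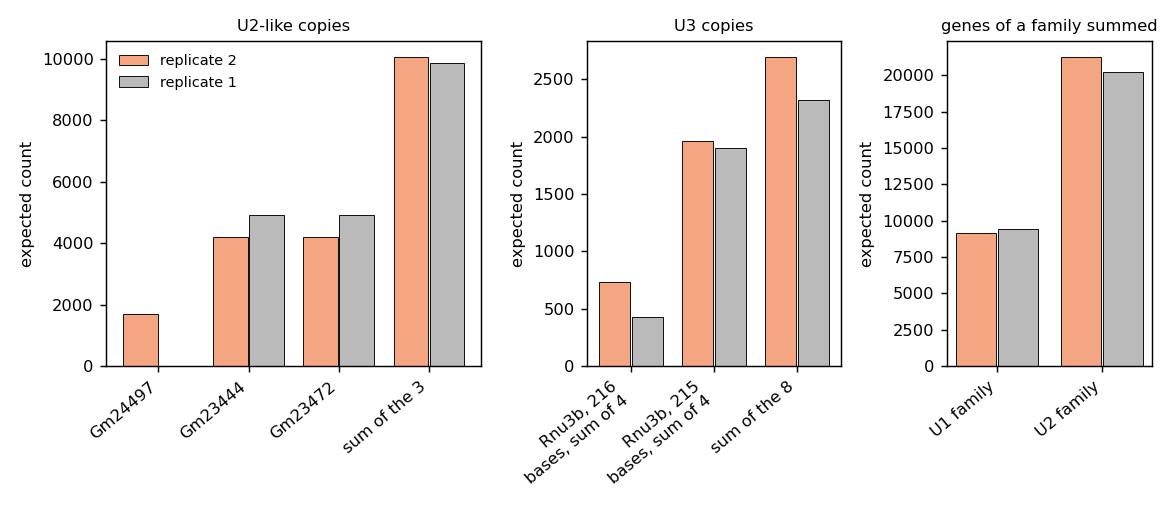
Expected counts in replicate 2 (left bar of each pair) and replicate 1 (right bar), 1 library per bar with no error bar, for the copies Gm24497, Gm23444 and Gm23472 and their sum, for the Rnu3b entries of 216 and 215 bases and their sum, and for the U1 and U2 genes summed. Gm24497 is at 1683 and 0.29 counts, while the sum of the 3 copies is 10069 and 9857.

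U1, the snRNA that recognises the start of an intron, was the next family. Rnu1a1 (chr11:87422867-87423030, plus strand) and 6 copies identical to it had 1037 counts in replicate 2 and 1069 in replicate 1 each, and 743 and 815 TPM. In its sequence, capitals mark ACTTACCTG, which pairs with the splice site, and the Sm site.
Rnu1a1: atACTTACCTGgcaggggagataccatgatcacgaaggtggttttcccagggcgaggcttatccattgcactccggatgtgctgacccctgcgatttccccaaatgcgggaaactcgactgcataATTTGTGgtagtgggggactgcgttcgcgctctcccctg

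The deposited posterior SD of Rnu1a1 was 491 counts in replicate 2 and 616 in replicate 1, and none of its 65 windows is its own. The summed level of the 13 U1 genes of the set was 6569 TPM in replicate 2 and 7212 TPM in replicate 1 (6890 ± 455 TPM, SD, n = 2). Changes of 1 to 4 bases gave some copies windows of their own. Gm22513 (T60C) had 92.3% of its windows to itself, with 898 counts in replicate 2 and 920 in replicate 1. Gm23238 (G12A, A23T, C153T and C160A) had 43.1% to itself, with 614 and 644 counts. Gm24305 (A26G) had 40% to itself, with 324 and 326 counts. The posterior SDs of Gm23238 and Gm24305 reached 12.3% and 17.8% of the count. Gm24924 (C153T), by contrast, had 0 counts in replicate 2 and 49.0 in replicate 1, with a posterior SD of 42.4 and 75.2 counts, and shared all but 7.69% of its windows. Rnu1b1 and Rnu1b2, copies annotated as the U1b form, had 0 counts in replicate 2 and 8.73 in replicate 1 each. Rnu1b6 had 0 and 8.62, and all 3 were below the minimum. Gm22614 and Gm25890, identical to each other and in the set, had 39.5 counts in replicate 2 and 17.85 in replicate 1 each. None of their 66 windows is their own, and they share windows with Rnu1b1, Rnu1b2 and Rnu1b6. Their posterior SDs reached 51.5% and 56.8% of the count.

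The remaining snRNA genes of the set included Gm24265 and Gm24407, which are 141 bases long and differ from each other by G88A and C99A (the base of Gm24265 first). Gm24265 (chr5:115489459-115489599, plus strand) had 1117 counts in replicate 2 and 1067 in replicate 1, and 1237 and 1259 TPM, and Gm24407 had 827 and 780 counts. All 42 windows of each were its own, and neither differed between the libraries beyond counting noise. Their annotation gives no further name. Capitals in the sequence of Gm24265 mark the Sm site.
Gm24265: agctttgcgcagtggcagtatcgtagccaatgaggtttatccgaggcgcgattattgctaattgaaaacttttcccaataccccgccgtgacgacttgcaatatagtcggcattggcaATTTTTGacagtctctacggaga

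The Sm site was found in 26 of the 27 snRNA genes of the set (96.3%), against 283 of all 1383 snRNA entries (20.5%), searched on the strand of the RNA. Most of those entries are too short for the set, and 24 of the 27 belong to the U1 and U2 families. Counting each distinct sequence once, 15 of 16 held it, and among all 290 snRNA entries of at least 126 bases 129 did (44.5%). It was found in 3 of 49 snoRNA genes and in none of the 9 scaRNA genes.

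Among the box C/D RNAs, U3 led. Rnu3b1 to Rnu3b4 lie on chromosome 11 inside an intron of Tex14, a gene at 0.255 TPM, and each is annotated by 2 entries that start at the same base and end 1 base apart. The 4 entries of 215 bases are identical and had 491 counts in replicate 2 and 474 in replicate 1 each. The 4 entries of 216 bases had 183 and 106 counts each, with posterior SDs from 106% to 193% of the count in the library where it was larger. Summed, the 8 entries had 2696 counts in replicate 2 and 2323 in replicate 1. The log2 ratio of the sum was 0.08 (95% counting interval -0.0045 to 0.16), and 0.18 when scaled to the ERCC total. Rnu3a, the other U3 gene, had 174 counts in replicate 2 and 138 in replicate 1. In the sequence of Rnu3b1 (chr11:87443237-87443451, plus strand), capitals mark TGATGA and the CTGA within the last 30 bases.
Rnu3b1: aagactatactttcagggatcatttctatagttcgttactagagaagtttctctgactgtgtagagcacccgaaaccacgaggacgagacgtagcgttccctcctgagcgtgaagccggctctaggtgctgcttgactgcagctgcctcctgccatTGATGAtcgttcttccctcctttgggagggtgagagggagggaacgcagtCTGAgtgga

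The 8 Rnu3b entries summed to 1079 TPM in replicate 2 and 991 TPM in replicate 1, and single-copy box C/D RNAs were below that sum, although Snord15b was at the level of a single Rnu3b entry of 215 bases (197 and 203 TPM). Snord17, in an intron of Snx5, had 98.1 TPM in replicate 2 and 99.5 TPM in replicate 1, and Snord15b had 204 and 196 TPM. Snord15a, the partner of Snord15b in the ribosomal protein gene Rps3, had 81.7 TPM in replicate 2 and 41.5 TPM in replicate 1, from 86 and 41 counts. Both guide the methylation of the RNA of the large ribosomal subunit and are 64.2% identical. The host Rps3 had 123 and 103 TPM. Snord15a lies in an intron of Rps3, whereas all bases of Snord15b lie in exons of annotated Rps3 transcripts, so that none of its windows is its own. Snord22, which lies wholly in exons of Snhg1 and has no window of its own, had 75.5 TPM in replicate 2 and 58.7 TPM in replicate 1. Snord15b (chr7:99479563-99479707, minus strand) is shown with TGATGA and the CTGA within the last 30 bases in capitals.
Snord15b: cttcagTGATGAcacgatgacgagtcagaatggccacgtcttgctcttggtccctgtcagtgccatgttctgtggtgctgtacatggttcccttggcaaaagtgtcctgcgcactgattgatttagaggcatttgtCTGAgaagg

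Of the 7 named box H/ACA RNAs, 3 stood well above the rest. Snora74a had 525 TPM in replicate 2 and 511 TPM in replicate 1. All its bases lie in exons of AC121821.1 and none of its 97 windows is its own, so reads of the 2 genes are not separable. Snora73b had 395 and 360 TPM, and Snora73a, its near-copy in the same host gene Snhg3, had 347 and 305 TPM. Snora73a has 77.6% of its bases in exons of Snhg3 and 43.4% of its windows to itself, whereas Snora73b is intronic. Snora73 is the RNA also known as U17, which takes part in the cutting of the ribosomal precursor. The pair differ at 7 of 205 positions. The other 4, Snora44, Snora23, Snora57 and Snora21, had means of 8.24 to 27.5 TPM, and from 9 to 19 counts in either library. Snora73b (chr4:132352322-132352526, minus strand) ends with the ACA box, in capitals, that gives the class its name.
Snora73b: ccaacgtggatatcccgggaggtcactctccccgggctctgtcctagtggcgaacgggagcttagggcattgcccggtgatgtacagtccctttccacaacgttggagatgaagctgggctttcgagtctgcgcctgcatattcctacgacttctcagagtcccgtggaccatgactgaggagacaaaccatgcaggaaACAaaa

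The 28 snoRNA genes with no name beyond a Gm number had a median of 39.1 TPM, between 5.92 and 541 TPM. An ACA that starts 6 bases from the end was found in 19 of the 28 (67.9%), against 276 of all 1507 snoRNA entries (18.3%) and 214 of the 815 of at least 126 bases (26.3%), and in 5 of the 7 named box H/ACA genes. Boxes C and D together were found in 3 of the 28, against 316 of all 1507 snoRNA entries. Among the 815 entries of at least 126 bases, 10 had both. The same search found both in only 3 of the 13 named box C/D genes of the set. It therefore missed most known box C/D genes and does not give the number of box C/D RNAs among the 28. RefSeq names the gene at the position of Gm22486 as Snord94. The highest were Gm22988 in Eif4a1, with 551 TPM in replicate 2 and 531 TPM in replicate 1, and Gm26447 in Eif4a2, with 483 and 513 TPM. Both lie in exons of annotated host transcripts and have no window of their own, so reads of host RNA that keeps this stretch are not separable from reads of the snoRNA.

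Of the 9 scaRNA genes, 8 had all windows to themselves. Scarna2, a guide for U2, had 4230 counts in replicate 2 and 3711 in replicate 1, and 625 and 584 TPM, and its posterior SD was 0 in both. Scarna10, which the annotation files as a snoRNA, had 580 and 578 TPM, with 18.6% of its windows to itself and 72.9% of its bases in exons of Ncapd2. Gm22009, in an intron of the import receptor gene Kpna4, had 265 TPM in replicate 2 and 317 TPM in replicate 1. Scarna13, in Snhg10, had 163 and 167 TPM, and Scarna6, in Atg16l1, had 127 and 115 TPM. Gm26083 lies wholly in an exon of Snhg20 and has no window of its own. None of the 9 scaRNA genes had a posterior SD over 5% of its count.

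Host genes were found for most snoRNA and scaRNA genes and for few snRNAs. On the same strand and wholly around the gene, 47 of 49 snoRNA genes and 7 of 9 scaRNA genes had a host that is not itself a small RNA, against 7 of 27 snRNA genes. Of the 47 snoRNA genes, 33 lay in introns, 8 in exons and 6 partly in exons, and 40 lay in protein-coding hosts, 29 distinct genes among 35 hosts, with Tex14 counted for all 8 Rnu3b entries. The hosts of the snoRNA genes ranged from 0.255 TPM (Tex14, counted 8 times) to 366 TPM, with a median of 19.0 TPM. Without U3, the median host of the 46 snoRNA and scaRNA genes that have one was 27.4 TPM. Across the 46 snoRNA and scaRNA genes with a host, other than U3, the level of the small RNA and that of its host had a Spearman rho of 0.06. Across the 30 of them that are wholly intronic with no shared window it was -0.03. Both are descriptions across genes of the same libraries, and genes are not independent replicates. The small RNA was above its host per length in 28 of the 46 and in 15 of the 30. Windows were compared with annotated transcripts and not with introns. Reads of unspliced host RNA over the 30 intronic genes are therefore not separable from reads of the small RNA.

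Uncertain assignment followed shared sequence. In 33 of the 85 genes the posterior SD exceeded 5% of the count in a library: 20 of 27 snRNA genes, 13 of 49 snoRNA genes and 0 of 9 scaRNA genes. None of the 39 genes with all 100-base windows to themselves was among these 33, and 34 of the 39 had a posterior SD of 0. Of the 33 genes with no window of their own, 27 exceeded 5%, among them all 23 that share with another gene of the set. The other 10 share only with genes outside the set, mostly their hosts, and 4 of them exceeded 5%.

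**Figure D4:**
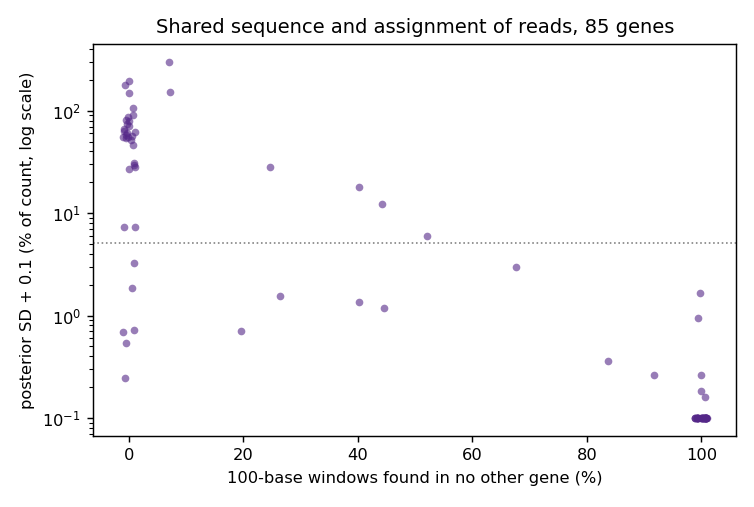
Posterior SD as a percent of the count, the larger of both libraries, plus 0.1 (log scale), for the 85 genes. The horizontal axis is the percent of 100-base windows found in no annotated transcript of another gene. Points were moved sideways by up to 1.2 for visibility, and values above 300 are drawn at 300. A dotted line marks 5%, and the 39 genes at 100% all lie below it.

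The libraries were compared gene by gene by exact binomial testing (two-sided, on rounded counts), adjusted by the Benjamini-Hochberg method over the 18322 genes that reached a mean count of 10. This test asks whether these libraries differ beyond counting noise, not whether conditions do. It takes the expected counts as observed reads and leaves out the uncertainty of assigning reads to copies. Of the 85 genes, 20 passed an adjusted p of 0.05, where 22.8% of all genes tested did, so the share was near the background. By direction, 7 were higher in replicate 2, where 12.5% of all genes were, and 13 were higher in replicate 1, where 10.3% of all genes were. The median log2 ratio of replicate 2 over replicate 1 was -0.07 over the 85 genes and 0.0026 over all genes, and the median size of the ratio was 0.18 and 0.14. Scaling to the ERCC total moved the ratios of the 85 genes by 0.05 to 0.11 on the log2 scale and turned their median to 0.04. It gave 14 of the 85 higher in replicate 2, where 30.1% of all genes were, and 4 higher in replicate 1, where 5.46% of all genes were. In either direction 35.6% of all genes passed under that scaling.

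Copies made up most of the 20. Of them, 16 had a posterior SD over 5%: the 7 identical U1 genes, Gm23238, Gm24924, the 3 U2 copies Gm23444, Gm23472 and Gm24497, and the 4 Rnu3b entries of 216 bases. The other 4 were Gm22513, the U1 copy with T60C, and the guide RNAs Gm22748, Snord15a and Gm22009. Under ERCC scaling 9 of the 20 lost their call: the 7 identical U1 genes (adjusted p = 0.389, exact binomial test), Gm23238 (0.372) and Gm22513 (0.498). Gm23444 and Gm23472 had a log2 ratio of -0.37 each (adjusted p = 1.45e-32, exact binomial test). That p leaves out their posterior SDs, 929 to 1385 counts over both libraries. When the U1, U2 and U3 genes were each summed and tested as 1, which was chosen after seeing the data, 5 of 55 passed, where 22.7% of all genes did. The U1 sum had a log2 ratio of -0.18 (adjusted p = 3.18e-16, exact binomial test), and -0.07 when scaled to the ERCC total. For the U2 sum it was -0.07 (adjusted p = 4.5e-05, exact binomial test), and it changed sign to 0.04 under that scaling. The U3 sum, at 0.08, did not pass (adjusted p = 0.124, exact binomial test), and its ratio was 0.19 when scaled to the ERCC total.

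The other 3 of the 5 were single-copy guide RNAs. Gm22748, an unnamed snoRNA in an intron of Odc1 (ornithine decarboxylase), had 32 counts in replicate 2 and 8 in replicate 1, a log2 ratio of 1.80 (adjusted p = 0.00312, exact binomial test). The host Odc1 had 44.0 and 32.3 TPM. Snord15a had 86 and 41 counts, a log2 ratio of 0.92 (adjusted p = 0.00388, exact binomial test). Gm22009 had 1391 counts in replicate 2 and 1561 in replicate 1, a log2 ratio of -0.31 (adjusted p = 2.11e-07, exact binomial test), while its host Kpna4 had 30.01 and 28.35 TPM. All 3 kept their direction and passed under ERCC scaling. None of these 3 passed edgeR's exact test with the biological coefficient of variation set to 0.1, under which only Gm24497 and Gm24924 of the 85 genes did and 0.944% of all genes passed.

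**Figure D5:**
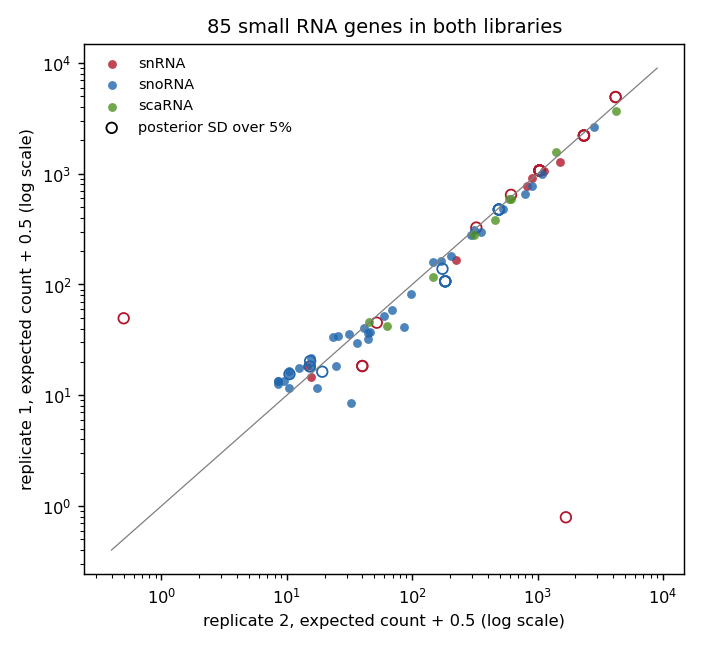
Expected counts plus 0.5 of the 85 genes in replicate 2 (horizontal) and replicate 1 (vertical), both on log scales, with a line of equal counts. Filled points have a posterior SD of at most 5% of the count and open points a larger one. Gm24497, with 1683 and 0.29 counts, and Gm24924, with 0 and 49.0, lie far from the line.

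The mRNAs listed for proteins that bind snRNAs and snoRNAs, or take part in making them, were all detected. The lists were chosen for their function, and some concern RNAs outside the set, such as those of the minor spliceosome. Values given for proteins in this and the next paragraph are those of their mRNAs, and no protein was measured. Their counts past the same test are to be read beside the 12.5% of all genes higher in replicate 2 and the 10.3% higher in replicate 1, and under ERCC scaling beside 30.1% and 5.46%. Of 8 Sm proteins, which form the ring on snRNAs, 3 were higher in replicate 2 and 1 in replicate 1. Snrpn, the Sm protein best known from neurons, had 391 TPM in replicate 2 and 392 TPM in replicate 1, and the other 7 had means of 5.70 to 45.1 TPM. Snrnp70, which binds U1, had 164 and 191 TPM, a log2 ratio of -0.31 (adjusted p = 2.32e-29, exact binomial test). Of 13 proteins of single spliceosomal particles, Snrnp70 among them, 2 were higher in replicate 2 and 1 in replicate 1. Of 7 LSm proteins, 2 were higher in replicate 2 and 0 in replicate 1. For the minor spliceosome, 0 of 7 were higher in replicate 2 and 2 in replicate 1. Under ERCC scaling the counts higher in replicate 2 were 6 of the Sm proteins, 8 of the particle proteins, 4 of the LSm proteins and 2 of the minor spliceosome, and those higher in replicate 1 were 0, 1, 0 and 2.

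None of the 4 core proteins of box C/D particles (Fbl, the methylase, Nop56, Nop58 and Snu13) and none of the 4 of H/ACA particles (Dkc1, the pseudouridine synthase, Nhp2, Nop10 and Gar1) passed in either direction, although 2 of each list had an unadjusted p under 0.05 and 2 of each were called higher in replicate 2 under ERCC scaling. Their medians were 35.0 TPM and 21.7 TPM. For the SMN complex, which assembles the Sm ring, 1 of 9 was higher in replicate 2 and 1 in replicate 1, and for snRNA transcription and end formation 1 of 12 each (5 and 0 under ERCC scaling). None of the 7 genes for export, cap and Cajal body passed or had an unadjusted p under 0.05, though 2 were called higher in replicate 2 under ERCC scaling. Of 16 noncoding genes that were found of a list of snoRNA hosts and noncoding neighbours at such loci, 0 were higher in replicate 2 and 6 in replicate 1, and under ERCC scaling 1 and 4. Snhg14, the host transcript that carries Snord116, had 570 and 654 TPM, although Snord116 itself could not be counted.

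The transcript tables in the layout of kallisto, made from the same libraries, hold almost none of these RNAs. Of the 85 genes, 83 were listed at 0 in both libraries. Scarna2 had 1217 counts in replicate 2 and 1033 in replicate 1, against 4230 and 3711 expected counts in the gene tables, and Gm22009 had 0 and 1. In that layout the effective length of long transcripts was the annotated length minus 346, and 84 of the 85 genes are under 347 bases. The effective lengths listed for the 85 genes were nonetheless above 0, from 33.6 to 111 positions. The zeros were not limited to small RNAs: of all 197 tested genes under 347 bases, 177 were at 0. Of the 297 tested genes at 0 there, whatever their length, 83 belonged to the set.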

How the data were processed

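Total RNA of 2 libraries of 1 group was analysed from the files that the authors deposited. The gene tables give un-normalised expected counts per gene, per the file headers, with a posterior mean and SD of the count. They also give TPM, which the authors scaled to a fixed sum per library over all entries, spike-ins included, per the file headers. The second layout, that of kallisto, gives estimated counts and TPM per transcript, as deposited, which were summed per gene. Build mm10 and annotation GENCODE M21 are per the submitters' notes. Aligner, settings and versions were not given in these sources. The tables held 81881 entries: 55536 genes, 97 spike-ins and 26248 numbered entries without a gene name. The spike-ins held 0.484% of counts in replicate 2 and 0.516% in replicate 1, the numbered entries 9.4e-06% and 2.67e-05%, and both stayed out of gene totals.

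Classes, host genes, lengths and sequences came from GENCODE M21, matched for all 55536 genes. A host is a gene of another biotype on the same strand that contains the small RNA; with several, the one of highest TPM was taken. Families were entries at least 85% identical by edit distance to Rnu1a1, Rnu2-10 or Rnu3b1. Shared windows were stretches of 100 bases found in an annotated transcript of any other gene, with introns not searched. Expected counts were rounded for the exact binomial test against library sizes after TMM scaling (trimmed mean of M-values, edgeR 4.0.16, R 4.3.3), with a prior count of 0.5 in log2 ratios. A quasi-likelihood fit has no residual degrees of freedom with 1 library against 1. The test was tested on simulated data. Python 3.11.15, scipy 1.17.1 and pandas 2.3.3 were used. Shares have exact Clopper-Pearson 95% intervals, which cover counting error alone because reads are no independent molecules.

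Named genes were the 6 with the highest mean count of each class, named spliceosomal snRNAs, the 6 with the largest ratio in each direction past the test, the 5 with the largest posterior SD, the 5 that differed most from the kallisto layout, and 3 on each side of the minimum; others were named to complete families or hosts after their values were seen. The genes and the lists were chosen with earlier results of these data known. Alternatives varied the minimum, scaling, test, prior count and quantification. A further sequence is not reported here.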

Additional observations from a re-analysis of the deposited data

How the results depend on the processing

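The number of genes selected was 85 and stayed between 68 and 103 with a minimum of 5 or 20 counts, with 10 counts in each library, or with the posterior mean count. It was 53 with a minimum of 50 and 1 with the kallisto-layout counts. Leaving out a replicate gave 84 to 88. By the kallisto layout the share of gene counts was 0.00363% instead of 0.165%, and the share of TPM 0.0640% instead of 2.73%. Leaving out a replicate gave 0.162% to 0.168% of counts and 2.70% to 2.76% of TPM.

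The 20 genes that differed between the libraries became 2 under the exact test of edgeR with a coefficient of variation set to 0.1 and 0 of 1 with kallisto-layout counts, where Scarna2 had an unadjusted p of 0.0171 and an adjusted p of 0.0632 by the exact binomial test. Of all genes, 0.944% passed that edgeR test and 25.4% passed with kallisto-layout counts. Among the 52 genes with a posterior SD of at most 5% there were 4. With identical copies summed there were 12 of 68, and with the U1, U2 and U3 genes summed 5 of 55, both chosen after seeing the data. In each of these settings 22.7% of all genes passed. The other scalings and count minimums gave 18 to 20, but the share of all genes that passed changed with them. At a minimum of 50 it was 28.3%, where 18 of 53 passed. Without a filter on low counts it was 13.6%, where 18 of 85 did. Under the ERCC total it was 35.6%, where 18 of 85 did and only 11 were shared with the 20. The median log2 ratio of -0.07 became 0.04 under ERCC scaling and 0.15 for the lone gene of the kallisto layout. Of 36 named levels, 33 moved by more than their SD under the kallisto layout. The number of genes with uncertain assignment was 28 to 35 at limits of 2% to 20%.

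No paired analysis was possible because there was 1 group. With 1 library per replicate number, differences have no replicate check, and depth does not limit the RNAs under 100 bases, whose counts are 0 by construction.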
